A study of Mus musculus with 6 samples.

Results

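Sprouty and Spred proteins and RAS GTPase-activating proteins restrain signaling from receptors through RAS to ERK. Their transcripts were compared between astrocytes transfected with BRAF KE and nontransfected astrocytes. The genes were taken by name, as members of these families. They are the Sprouty genes Spry1, Spry2, Spry3 and Spry4, the Spred genes Spred1, Spred2 and Spred3, and the RAS GTPase-activating genes Nf1, Rasa1 and Rasa2. Of these 10 names, 9 were found among the 55357 genes of the expression table, and Spry3 was not analysed here. All 9 had a mean normalized count above 10 and were among the 15280 genes tested.

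Both groups were primary astrocyte cultures from the cortex of C57BL/6 mouse embryos at embryonic day 18. In 3 cultures (KE), the cells were transfected with BRAF KE, labelled as BRAF K499E. The plasmid that the paper describes, for immunostained astrocytes, carried FLAG-tagged BRAF KE behind the CMV promoter, which is active in most cell types. The other 3 cultures (NT), labelled naive, received no plasmid, so the plasmid and its mutant insert cannot be told apart. For immunostained astrocytes the paper describes a GFP plasmid given along with that of BRAF. It does not state whether the sequenced cultures received this second plasmid. Cultures given an empty plasmid, or BRAF WT, were not analysed here. The labels give 48 hours from transfection to harvest, and mRNA libraries of whole cultures were made with a kit that keeps the strand. The medium described for astrocytes grown on coverslips contained HB-EGF, a ligand of the EGF receptor, and whether the cultures sequenced were grown in it is not stated. Neither the labels nor the methods state whether the 3 cultures of a group came from separate preparations, so p-values measure only the spread between these cultures, which may be technical. The comparison addresses which signaling genes change when astrocytes express BRAF KE.

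The values are gene counts after the authors' size-factor normalization, here called normalized counts. Approximate depth lay between 24500000 and 34100000 reads per culture, and KE replicate 2 had the lowest. Braf, the transfected gene, was between 34933 and 40978 in KE and between 811 and 946 in NT. The astrocyte label was checked against 11 astrocyte markers, all of which were detected, although S100b was only 11.8 to 31.5. Their summed normalized count was 195734 to 201787 in KE and 143563 to 152402 in NT, with 7 of the 11 called higher and 2 lower (1 lower without KE replicate 1, KE replicate 3, NT replicate 2 or NT replicate 3). Markers of other cells were present as well. All 15 microglia and macrophage markers were lower in KE, with summed counts of 5539 to 7890 against 47318 to 55822 in NT, and none of them was at 0. All 7 tested of 8 oligodendrocyte lineage markers were called lower (4 without KE replicate 1, KE replicate 3 or NT replicate 2), with sums of 27105 to 31876 in KE and 35921 to 36217 in NT. Of 7 neuronal markers, summing to 6531 to 6792 in KE and 8592 to 9353 in NT, 6 were tested, 1 was called higher and 2 lower. Of 9 vascular and fibroblast markers, summing to 1617 to 1807 in KE and 1530 to 1826 in NT, 7 were tested, 2 were called higher and 2 lower, with at most 1 called higher when any single culture was left out and 1 called lower without NT replicate 2. Among all tested genes, 25.3% were called higher and 26.0% lower. The shares of neuronal and of vascular and fibroblast markers called were near this background, so those counts are not a result about these cells. In whole cultures, fewer cells of a type and less RNA per cell cannot be told apart.

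Sprouty proteins are feedback inhibitors: ERK activity induces Sprouty genes, and the proteins then dampen signaling from receptor tyrosine kinases to RAS and RAF. Spred proteins are relatives of Sprouty that share its cysteine-rich C-terminal domain, and they bring neurofibromin, the product of Nf1, to the membrane. Neurofibromin, p120 RasGAP (Rasa1) and GAP1m (Rasa2) speed up GTP hydrolysis by RAS and so switch it off. All of them act at or above the level of RAF. Loss of NF1 causes neurofibromatosis type 1 and loss of SPRED1 causes Legius syndrome, both of which belong to the RASopathies, as does the cardio-facio-cutaneous syndrome that BRAF mutations cause.

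Called changes were found among the Sprouty and the Spred genes. Among the Sprouty genes, Spry1 and Spry4 fell and Spry2 was not called. Among the Spred genes, Spred3 and Spred1 rose and Spred2 was not called. None of Nf1, Rasa1 and Rasa2 was called in limma, nor did any of them have an unadjusted p under 0.05. A call means an adjusted p under 0.05 from limma, fitted to log2(normalized count + 1) and adjusted by Benjamini-Hochberg over all tested genes. Thus 4 of the 9 genes were called, 2 higher and 2 lower, while 51.3% of all tested genes were called, 25.3% higher and 26.0% lower. The number called higher was 1, with Spred1 no longer called, without KE replicate 1, KE replicate 3 or NT replicate 2, or without the variance trend in limma. KE was wholly apart from NT in 4 of the 9 genes and in 59.9% of all tested genes. The share of these genes called was near this background, so the counts are not a result about them. The median absolute log2FC was 0.14 over the 9 genes and 0.30 over all tested genes.

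**Figure D1:**
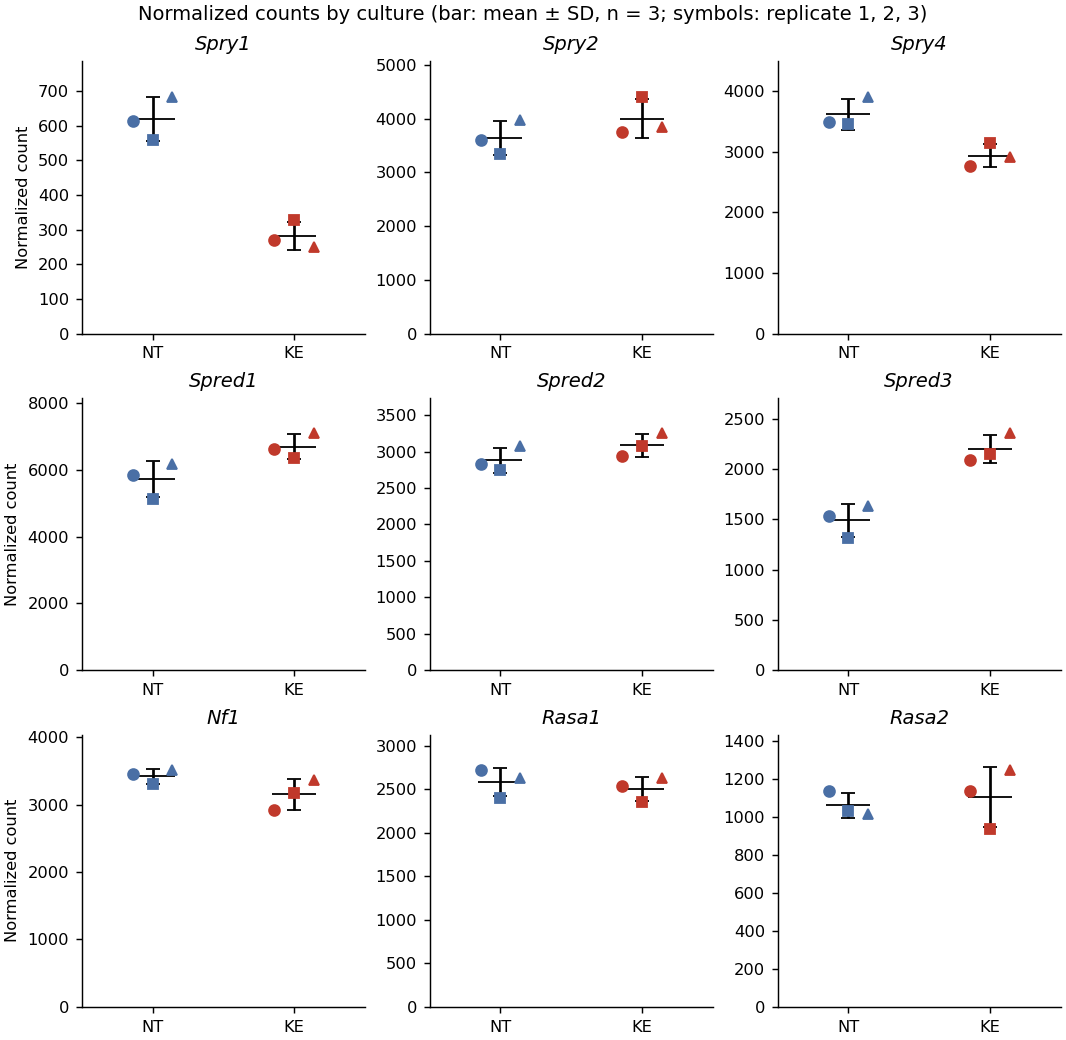
Normalized count (vertical axes, each from 0) of the 9 genes in each NT and KE culture. Points are cultures, horizontal bars the means and error bars the SD (n = 3). The KE points lie wholly below the NT points for Spry1 and Spry4 and wholly above them for Spred1 and Spred3.

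Spry1 (ENSMUSG00000037211) had the largest change of the 9 genes. It lies at chr3:37693897-37698755 (GRCm39, plus strand). Its normalized counts were 271, 328 and 249 in KE replicates 1, 2 and 3 and 615, 559 and 685 in NT replicates 1, 2 and 3. The highest KE culture was well below the lowest NT culture. The mean fell by 54.4%, from 619 ± 63.1 to 282 ± 41.0 (SD, n = 3). The log2FC was -1.13 (standard error 0.12, 95% confidence interval -1.40 to -0.87, limma, Benjamini-Hochberg adjusted p = 1.9e-05), and 4.90% of all tested genes had a lower log2FC. The call held in each of the alternative analyses, including each fit with a culture left out, where the log2FC lay between -1.25 and -1.05. The microglia and macrophage markers fell in the same cultures, and KE replicate 2 had both the highest Spry1 count of the KE cultures and the highest microglia sum, 7890 against 5539 and 5562 in KE replicates 1 and 3. In NT the order differed, since replicate 3 had the highest Spry1 count and the lowest microglia sum, 47318 against 55822 and 55527. The oligodendrocyte lineage sum, also lower in KE, ranked the cultures of each group as Spry1 did. It was 27778, 31876 and 27105 in KE replicates 1, 2 and 3 and 36196, 35921 and 36217 in NT. The part of microglia or oligodendrocyte lineage cells in the fall of Spry1 was not tested. An antisense gene, Gm42922, shares 909 exon bases with Spry1, but its mean was only 7.02 in KE and 7.92 in NT. Other annotated antisense genes, which share 564 exon bases with Spry2, 211 with Spred3 and 240 with Rasa2, were not analysed here.

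Because Spry1 and Spred3 had the largest fall and the largest rise, the 250 bases upstream of their start sites are shown, from RefSeq on GRCm38.p6, 5′ to 3′ along the gene. Capitals mark the GC box GGGCGG, a sequence bound by SP1 and related factors, on either strand. Spry1 lies here on the plus strand at chr3:37639697-37639946 and Spred3 on the minus strand at chr7:29168648-29168897.
Spry1: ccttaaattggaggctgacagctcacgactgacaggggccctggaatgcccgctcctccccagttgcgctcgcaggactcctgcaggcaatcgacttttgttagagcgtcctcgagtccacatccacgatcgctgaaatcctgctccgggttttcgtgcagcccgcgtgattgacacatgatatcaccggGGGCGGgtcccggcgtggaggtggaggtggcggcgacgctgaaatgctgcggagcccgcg
Spred3: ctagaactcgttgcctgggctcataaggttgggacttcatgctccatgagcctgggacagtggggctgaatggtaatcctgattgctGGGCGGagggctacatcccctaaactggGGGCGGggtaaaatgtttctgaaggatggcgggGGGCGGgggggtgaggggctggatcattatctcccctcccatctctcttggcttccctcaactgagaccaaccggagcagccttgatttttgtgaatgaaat
Spry1 held 1 GC box and Spred3 held 3, and 32.9% of 27025 promoter windows of this length held at least 1. G and C made up 62.4% of the Spry1 window and 55.6% of the Spred3 window, and the median over all windows was 52.0%. Upstream windows were found for 8 of the 10 genes. The ETS motif CCGGAAGT, of a factor family that ERK phosphorylates, was found only in the Nf1 window, 1 time, and in 2.93% of all windows. GC boxes were also found in the windows of Spred1, Spred2, Rasa1 and Rasa2. The AP-1 motif TGANTCA, the cAMP response element TGACGTCA and the interferon response motif GAAANNGAA were found in none of the 8 windows and in 6.87%, 1.62% and 7.16% of all windows. Both strands were searched, and motifs did not overlap each other in the 2 windows shown.

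Spry2 (ENSMUSG00000022114), the Sprouty gene with the highest level per kb, lies at chr14:106128766-106136446 (GRCm39, minus strand). Its product binds GRB2 and the ubiquitin ligase CBL once it is phosphorylated on tyrosine. Its normalized counts were 3743, 4408 and 3846 in KE and 3604, 3346 and 3972 in NT. NT replicate 3 was above 2 of the KE cultures, so the groups overlapped. The log2FC of 0.14 had a 95% confidence interval from -0.04 to 0.31 and was not called (limma, Benjamini-Hochberg adjusted p = 0.18). In fold terms the interval runs from 0.972 to 1.24. The log2FC was 0.063 without KE replicate 2 and 0.076 without NT replicate 2.

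Spry4 (ENSMUSG00000024427), whose product also inhibits signaling from receptor tyrosine kinases to ERK, lies at chr18:38719300-38736025 (GRCm39, minus strand). Its normalized counts were 2763, 3144 and 2912 in KE and 3494, 3456 and 3913 in NT. Every KE culture was below every NT culture. The mean fell by 18.8%, from 3621 ± 254 to 2939 ± 192 (SD, n = 3). The log2FC was -0.30 (standard error 0.07, 95% confidence interval -0.45 to -0.15, limma, Benjamini-Hochberg adjusted p = 0.0042). A lower log2FC was found in 25.1% of all tested genes. The microglia and oligodendrocyte lineage markers were lower in the same cultures, and their part in the fall of Spry4 was not tested.

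Spred1 (ENSMUSG00000027351), at chr2:116951524-117018277 (GRCm39, plus strand), had the highest counts of the 9 genes. They were 6619, 6361 and 7086 in KE and 5854, 5114 and 6178 in NT. The lowest KE culture was just above the highest NT culture. The mean rose 1.17-fold, from 5715 ± 546 to 6689 ± 368 (SD, n = 3), with a log2FC of 0.23 (standard error 0.07, 95% confidence interval 0.07 to 0.39, limma, Benjamini-Hochberg adjusted p = 0.024). This call was lost in 4 alternative analyses. The limma adjusted p was 0.086 without the variance trend, 0.055 without KE replicate 1, 0.087 without KE replicate 3 and 0.095 without NT replicate 2.

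Spred2 (ENSMUSG00000045671), which like Spred1 binds neurofibromin, lies at chr11:19874355-19974442 (GRCm39, plus strand). Its normalized counts were 2941, 3071 and 3251 in KE and 2831, 2745 and 3075 in NT. The highest NT culture was above 2 of the KE cultures. The log2FC was 0.10 (95% confidence interval -0.04 to 0.24) and was not called (limma, Benjamini-Hochberg adjusted p = 0.22). It was 0.061 without KE replicate 3 and 0.064 without NT replicate 2.

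Spred3 (ENSMUSG00000037239), at chr7:28857984-28869836 (GRCm39, minus strand), had the largest rise. Its product lacks the functional KIT-binding domain of the other Spred proteins. Its upstream window is shown above. Its normalized counts were 2091, 2150 and 2357 in KE and 1537, 1312 and 1629 in NT. The groups were well apart, and the lowest KE culture was far above the highest NT culture. The mean rose by 47.3%, from 1493 ± 163 to 2199 ± 139 (SD, n = 3). The log2FC was 0.56 (standard error 0.09, 95% confidence interval 0.37 to 0.75, limma, Benjamini-Hochberg adjusted p = 2.4e-04), and 12.5% of all tested genes had a higher one. It was called in each alternative analysis, between 0.47 and 0.63 with a culture left out. Ggn, on the opposite strand, shares 202 exon bases with Spred3. Its mean was 87.7 in KE and 69.1 in NT, small beside the difference in Spred3, and whether reads were counted by strand is not stated. The astrocyte marker sum was also higher in KE, and its part in the rises of Spred1 and Spred3 was not tested.

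Nf1 (ENSMUSG00000020716), at chr11:79230500-79472438 (GRCm39, plus strand), had normalized counts of 2916, 3165 and 3370 in KE and 3454, 3300 and 3512 in NT. KE replicate 3 was above NT replicate 2, so the groups overlapped. The log2FC was -0.12 (95% confidence interval -0.26 to 0.02) and was not called (limma, Benjamini-Hochberg adjusted p = 0.14). With quantile normalization it was -0.16, with a limma Benjamini-Hochberg adjusted p of 0.0495, just past the threshold. Without KE replicate 1 it was -0.067. In fold terms the main interval runs from 0.833 to 1.02.

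Rasa1 (ENSMUSG00000021549), at chr13:85358526-85437670 (GRCm39, minus strand), had normalized counts of 2532, 2355 and 2628 in KE and 2719, 2402 and 2627 in NT. The groups lay over each other. The log2FC was -0.04 (95% confidence interval -0.19 to 0.11, limma, Benjamini-Hochberg adjusted p = 0.62). Ccnh, on the opposite strand, shares 1988 exon bases with Rasa1 and had a mean of 1139 in KE and 1295 in NT, so the value of Rasa1 is uncertain if reads were counted without strand.

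Rasa2 (ENSMUSG00000032413), at chr9:96421353-96513674 (GRCm39, minus strand), had normalized counts of 1136, 936 and 1248 in KE and 1137, 1034 and 1017 in NT. KE held both the highest and the lowest of the 6 cultures. The log2FC was 0.05 (95% confidence interval -0.17 to 0.27, limma, Benjamini-Hochberg adjusted p = 0.71). For Rasa1 and Rasa2 the sign of the log2FC turned when a single culture was left out, KE replicate 2 for Rasa1 and KE replicate 3 for Rasa2. The fold intervals, 0.875 to 1.08 for Rasa1 and 0.887 to 1.21 for Rasa2, bound the change that these cultures allow.

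**Figure D2:**
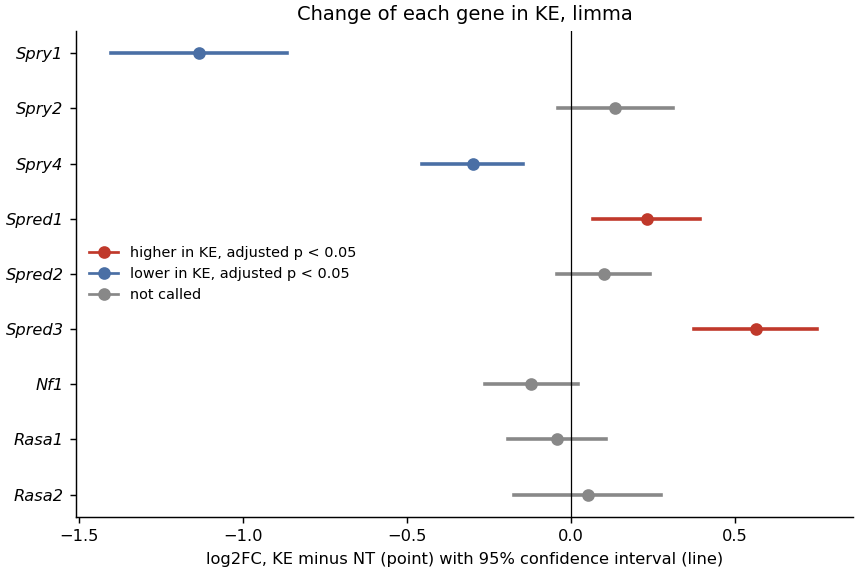
The log2FC of each gene (horizontal axis, KE minus NT, points) with its 95% confidence interval from limma (lines). Red genes were called higher, blue genes called lower and grey genes not called. The interval of Spry1, from -1.40 to -0.87, lies apart from those of the other 8 genes.

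To compare the genes with each other, normalized counts were divided by the length of the merged exons of all annotated transcripts. On this scale of normalized count per kb, Spred1 (736 ± 70.3) and Spry2 (707 ± 61.1, SD, n = 3) had the highest levels in NT and did not differ beyond their spread. Spry4 (549), Spred2 (473) and Spred3 (226) followed, each with a range of cultures apart from the next. Rasa1 (187) and Nf1 (182) overlapped. Spry1 (130 ± 13.2) and Rasa2 (63.6 ± 3.88) had the lowest levels, in that order. In KE, Spred2 (507) stood above Spry4 (445), and the ranges of Spry1 (59.2 ± 8.59) and Rasa2 (66.3 ± 9.48) overlapped. The order in part depends on the length used. With the length of the canonical transcript alone, a choice made after the data were seen, Spry2 (1123) was above Spred1 (903) in NT, and Spred3 (345) was below Rasa1 (517) and Nf1 (393). In KE on that length, Spred2 (612 to 677) and Spry4 (581 to 661) overlapped, and Spry1 (92.1 to 122) lay wholly below Rasa2 (161 to 215).

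Within families, these levels on the merged exon length also give the share of each gene. Spry2 made up 51.0% ± 0.603 of the summed Sprouty level per kb in NT and 60.6% ± 0.448 in KE (SD, n = 3). Spry4 made up 39.6% and 34.8%, and Spry1 9.36% and 4.61%. The Sprouty sum itself was 1386 ± 111 per kb in NT and 1281 ± 106 in KE (SD, n = 3), and its cultures overlapped. Spred1 made up 51.2% of the Spred level in NT and 50.6% in KE, Spred2 33.0% and 29.8%, and Spred3 15.7% and 19.6%. The shares depend on the length used, and with the canonical transcript Spred1 made up 48.8% in NT and 47.9% in KE. The Spred sum was between 1308 and 1547 per kb in NT and between 1649 and 1803 in KE, without overlap. The sum of Nf1, Rasa1 and Rasa2 was 412 to 449 in NT and 395 to 445 in KE, with overlap.

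**Figure D3:**
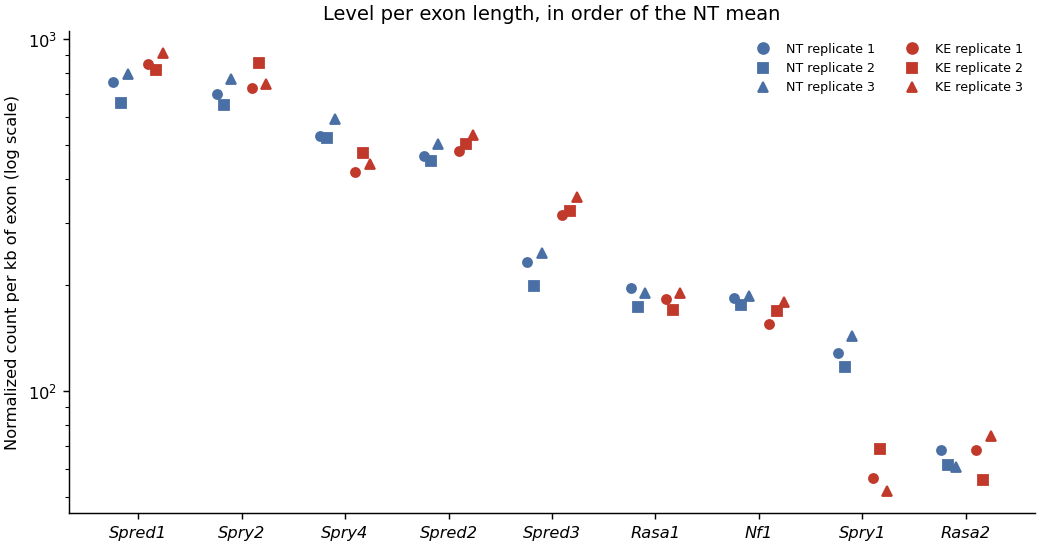
Normalized count per kb of merged exon (vertical axis, log scale) of the 9 genes in each culture, ordered by the NT mean. Spry1 moves from 117 to 143 in NT down to 52.1 to 68.7 in KE, where it overlaps Rasa2 on this length (with the canonical transcript length it lies below Rasa2).

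The ratio of a pair of genes within a culture does not depend on how cultures are scaled to each other, and all 9 pairs within the 3 families were compared in this way. With 3 cultures against 3, an exact permutation test cannot give a two-sided p below 0.1, so no pair can pass at 0.05. The log2 ratio of Spry2 to Spry4 was 0.44, 0.49 and 0.40 in KE and 0.04, -0.05 and 0.02 in NT. Counts of the 2 genes, not scaled by length, were thus nearly equal in each NT culture, whereas Spry2 was the higher in each KE culture. Per kb of merged exon, Spry2 (650 to 772) was above Spry4 (524 to 593) in NT as well. The difference was 0.44 ± 0.04 (standard error, exact permutation p = 0.1, the smallest possible, adjusted p = 0.15 over 9 pairs). The log2 ratio of Spry1 to Spry2 differed by -1.27 and that of Spry1 to Spry4 by -0.83.

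In the Spred family, the log2 ratio of Spred2 to Spred3 was 0.49, 0.51 and 0.46 in KE and 0.88, 1.06 and 0.92 in NT, a difference of -0.46 ± 0.06 (standard error). That of Spred1 to Spred3 differed by -0.33 and that of Spred1 to Spred2 by 0.13. The KE and NT ratios did not overlap in any of the 6 Sprouty and Spred pairs, each at the smallest exact permutation p of 0.1. Over all pairs of tested genes, 59.7% did not overlap. The share of the 9 pairs without overlap was near this background, so this count is not a result about them. The 3 pairs among Nf1, Rasa1 and Rasa2 overlapped, with differences of -0.08 to -0.17 and exact permutation p of 0.5 for Nf1 to Rasa1, 0.3 for Nf1 to Rasa2 and 0.4 for Rasa1 to Rasa2. These differences moved by over 1.5 times when single cultures were left out, from -0.13 to -0.015 for Nf1 to Rasa1, from -0.29 to -0.093 for Nf1 to Rasa2 and from -0.17 to -0.037 for Rasa1 to Rasa2. The 9 pairs share genes and so are not independent of each other.

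**Figure D4:**
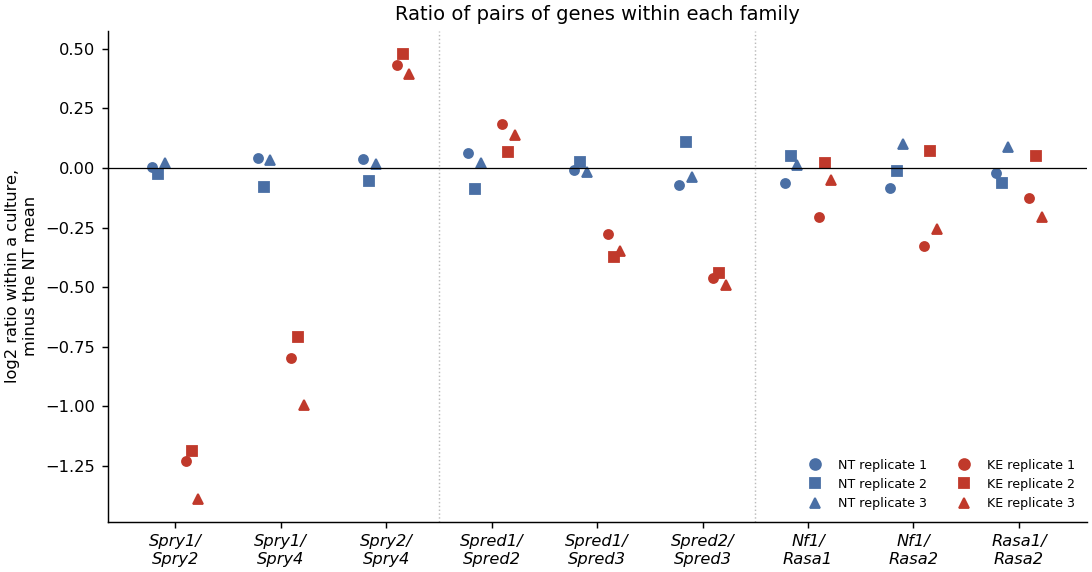
The log2 ratio of normalized counts of 2 genes within each culture, minus the mean of that ratio in NT (vertical axis), for the 9 pairs within families. Blue points are NT and red points KE cultures, and symbols give the replicate. KE and NT do not overlap in the Sprouty and Spred pairs, with a difference of up to -1.27 for Spry1 to Spry2. They overlap in the pairs of Nf1, Rasa1 and Rasa2. Over all pairs of tested genes, 59.7% did not overlap, and the share among these 9 pairs was near that background.

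The genes around these regulators were described from lists chosen by function. For comparison with the counts called in each list, 25.3% of all tested genes were called higher and 26.0% lower. The median log2FC was -0.34 for other RAS GTPase-activating genes, 0.01 for exchange factors, 0.19 for RAS proteins, -0.01 for binding partners and 0.29 for other inhibitors, and over all tested genes it was 0.0018. Other RAS GTPase-activating genes numbered 6, of which 5 were tested, 0 were higher and 3 lower at an adjusted p under 0.05 from limma. Rasal3, which is found mainly in blood cells, fell from 145, 159 and 128 in NT to 8.49, 10.4 and 9.16 in KE (log2FC -3.81). Rasa4 had a log2FC of -2.00 and Rasal2 one of -0.34. Rasa3, a relative of Rasa2 and the most abundant of the list by count, was not called, with a log2FC of 0.15 and an interval from 0.01 to 0.29. Dab2ip was not called either (0.08). At an unadjusted p under 0.05 in limma, 1 gene of the list, Rasa3, was on the higher side.

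RAS exchange factors, which load RAS with GTP, numbered 8, of which 6 were tested, 1 was higher and 1 lower. Without KE replicate 2, 2 were higher. Sos1 and Sos2, the exchange factors recruited by receptor tyrosine kinases, were not called, with log2FC of -0.06 and -0.06. Rasgrf2 was low and rose from 16.8, 18.7 and 32.4 in NT to 49.7, 71.3 and 52.5 in KE (log2FC 1.36). Rasgrp3 fell from 274, 214 and 261 to 22.5, 34.7 and 25.4 (log2FC -3.15). The falls of Rasal3, Rasa4 and Rasgrp3 ran in the same cultures as that of the microglia and macrophage markers, whose part in them was not tested.

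Of the 5 genes of RAS proteins described here, 3 were called higher and 1 lower, against 25.3% and 26.0% of all tested genes. The number called higher was 2 without KE replicate 1, NT replicate 1 or NT replicate 3. Rras and Mras, which encode relatives of the classical RAS proteins, rose with log2FC of 0.58 and 0.46, and Hras rose by less (0.19). Nras fell, with a log2FC of -0.48. Rras2 was not called (-0.02, interval -0.23 to 0.18).

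Binding partners and regulators of Sprouty, Spred and RASA1 numbered 15, with 2 higher, 4 lower and 9 not called. The number called higher was 1 when KE replicate 1, 2 or 3 or NT replicate 1 was left out. Dok1 and Dok2 encode adaptors that bind p120 RasGAP, and they moved apart: Dok1 rose with a log2FC of 0.80, and Dok2, which is typical of blood cells, fell with one of -2.11. The microglia and macrophage markers (median log2FC -3.33) fell in the same cultures, and their part in the fall of Dok2 was not tested. Kit (-0.87) encodes a receptor whose signaling Spred proteins inhibit, and Siah2 (-0.58) and Cbl (-0.43) encode ubiquitin ligases that act on Sprouty proteins. All 3 fell. Cav1 (0.32) was called only narrowly, at a Benjamini-Hochberg adjusted p of 0.0494 in limma. Grb2, Ptpn11 and Frs2, which link receptors to RAS, were not called, with log2FC of -0.01, -0.04 and 0.10.

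Inhibitors of signaling from receptors to ERK other than the 9 genes were also split, with 5 of the 8 higher and 3 lower. Among all tested genes, 25.3% were called higher and 26.0% lower. The number of these inhibitors called higher was 4 without KE replicate 1, KE replicate 2 or NT replicate 2. Dusp4 and Dusp5, which encode nuclear phosphatases of MAP kinases, rose with log2FC of 0.71 and 1.02. Dusp6 and Dusp7, which encode cytoplasmic phosphatases of ERK, fell with log2FC of -0.28 and -0.43. Among inhibitors of receptors, Errfi1 (0.36) and Lrig1 (0.33) rose and Il17rd (-0.31), an inhibitor of FGF receptor signaling, fell. Pebp1, which encodes the RAF kinase inhibitor protein, rose with a log2FC of 0.26. Genes of the interferon response, which ran in the same direction in all 10 of a short list (median log2FC 3.33), rose in the same KE cultures, and their part in any change described here was not tested.

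**Figure D5:**
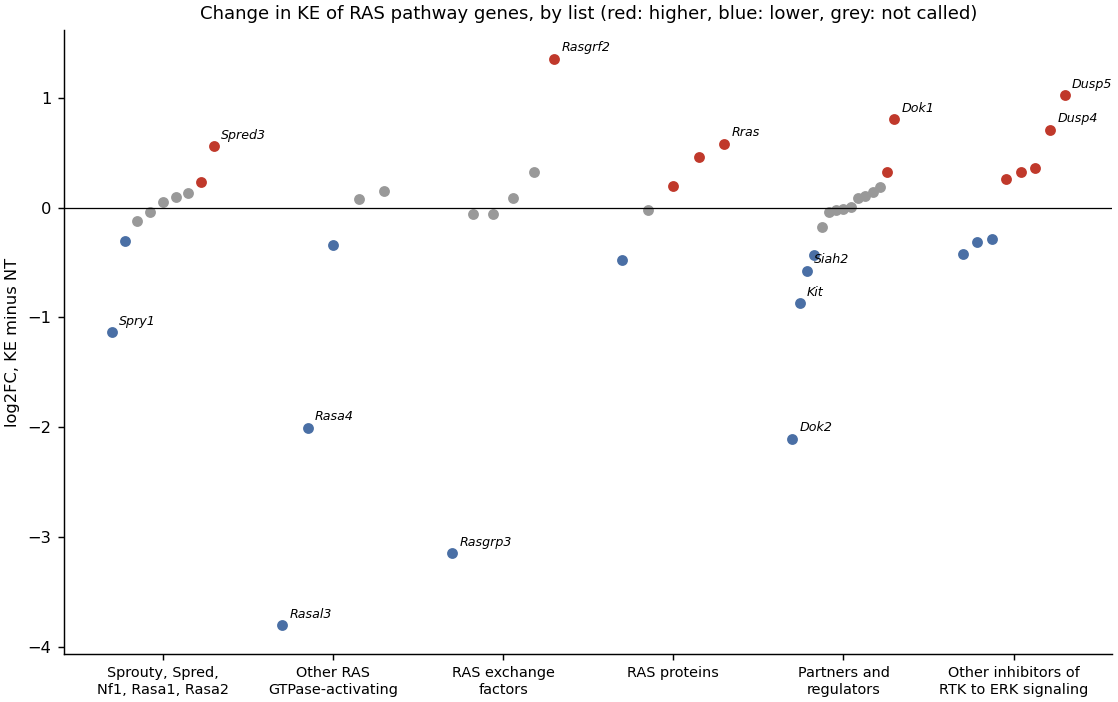
The log2FC (vertical axis, KE minus NT) of each tested gene in the 6 lists of RAS pathway genes (horizontal axis). Red points were called higher, blue called lower and grey not called, and called genes beyond 0.5 in either direction are named. Spry1 and Spred3 are the named genes of the first list, and Rasal3 has the lowest value of all lists shown, -3.81.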

How the data were processed

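RNA-seq of 3 KE and 3 NT cultures was analysed. The authors deposited a normalized signal for 55357 genes, that is, Salmon gene counts divided by DESeq2 size factors. The methods describe the nf-core pipeline 3.2, with TrimGalore and STAR on GRCm39, whereas the submitters' processing notes name GRCh38. The gene identifiers are mouse. The methods mention batches without naming them, so none was modelled. Normalization removes depth, so depth was approximated by dividing each total by its most frequent low value. Low values were within 0.1 of a whole multiple in only 75.2% to 77.7% of cases, so whole reads were not recovered and counting error is unknown.

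Genes with a mean of at least 10 were fitted as log2(value + 1) with limma 3.58.1 (R 4.3.3), with group as the factor and a variance trend. Tests were two-sided with Benjamini-Hochberg adjustment. The script was tested on simulated data. Ratios were tested by exact permutation (scipy 1.17.1). Fold changes on this log2 scale slightly understate those of low genes. Positions and exon lengths came from Gencode vM39 on GRCm39.

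The genes and lists were chosen with earlier results of these data known. Named genes were Braf, the 10 genes, and from each list the called genes with the largest changes. Others were named for their role after their values were seen. Some genes of the lists are not reported here. Alternatives were pseudocounts of 0.5 and 5, no filter or a mean of at least 50, scaling to the 75th percentile, quantile normalization, no variance trend, the replicate number as a block and leaving out each culture.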

Additional observations from a re-analysis of the deposited data

How the results depend on the processing

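Spry1, Spry4 and Spred3 kept their direction and their call in all 14 alternatives, and Spry2 and Spred2 were called in none. Dropping the variance trend cannot move a log2FC (0.23 for Spred1), but the standard error of Spred1 was then 0.092 in place of 0.075 and its call was lost, which left 1 gene called higher. With a culture left out, the log2FC of Spred1 was 0.15 to 0.29 and the number of genes called higher 1 to 2. The cause was not tested. Nf1 was called lower with quantile normalization (log2FC -0.16). Leaving out a culture gave a range of log2FC from -0.095 to 0.00037 for Rasa1, which turned without KE replicate 2, and from -0.042 to 0.17 for Rasa2, which turned without KE replicate 3. Of 308 comparisons of the number of called genes in the lists, 32 moved by more than 1.5 times, mostly between counts of 1 and 2. Over all tested genes, 3280 to 3565 were higher and 3496 to 3744 lower with a culture left out. Whether KE and NT cultures of the same number were prepared together is not stated. Deviations of the same number in KE and NT had an r across genes of 0.059, 0.066 and 0.065. Those of different numbers had an r of -0.050 to -0.010, so every culture correlated best with its own number. Values this small cannot decide whether the cultures were paired. A replicate block gave 3967 higher and 4079 lower genes, no call among the 9 genes changed, and the partners called higher numbered 4 in place of 2. With the block the standard error of Spred1 was 0.049 in place of 0.075, and its limma adjusted p was 0.0052 in place of 0.024. The standard error was larger with the block for Spry1 (0.13 in place of 0.12) and Spry2 (0.082 in place of 0.080). Counting error is unknown, and the part of depth, lowest in KE replicate 2, in these values was not tested.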

Other observations

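Nf1 holds other genes within its introns, on the opposite strand, and these were looked at after their values were seen. Evi2a, Evi2b and Omg share no exon bases with Nf1. Evi2a was 34.7, 48.8 and 38.8 in KE replicates 1, 2 and 3, against 529, 495 and 368 in NT, a log2FC of -3.47 (limma, Benjamini-Hochberg adjusted p = 8.4e-08). Evi2b, which is expressed in blood cells, was 28.0, 36.3 and 28.1 in KE and 435, 474 and 294 in NT, a log2FC of -3.64. Omg, which encodes the oligodendrocyte myelin glycoprotein, was lower in every KE culture, with a log2FC of -0.86. Within the same stretch of chromosome 11, Nf1 itself had a log2FC of -0.12 and was not called. The microglia and oligodendrocyte lineage markers were lower in the same cultures, and their part in these falls was not tested. Whether any read of these genes was counted for Nf1 was not tested.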
